A study of Mus musculus with 25 samples.

Results

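The genes described here are 8 genes of the B-lymphocyte lineage measured in mouse lung during calorie restriction: Cd79a, Cd79b, Ms4a1, Cd22, Fcer2a, Blnk, Pax5 and Igha. They were chosen by name, with earlier results of these data known. Counts of members beside the share of all probe sets are therefore a description. Every probe set of the Affymetrix MG-U74Av2 array whose only annotated symbol was one of these 8 was taken, which gave 13 probe sets, of the 8251 genes that have a probe set with 1 symbol. The CR (calorie restriction) arrays were of lung from C57BL/6 mice whose food was reduced by 2/3, taken 2, 4, 12, 24, 48, 72 or 96 h after the onset of restriction, with 2 arrays at each time (letters a and b). The control arrays were of lung from C57BL/6 mice described as fed, with 4 arrays at 0 h (numbers 1 and 2, each with letters a and b) and 2 arrays at each of 2, 4 and 12 h. The control descriptions also carry the words on the food reduction, so the feeding of these mice is read from the word fed and from the titles. The labels give neither age nor sex, and they do not say whether a and b are different mice, so that p-values measure the spread between these arrays, which may be technical.

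B cells recognise antigen through a surface immunoglobulin that cannot signal by itself. The immunoglobulin sits in a complex with the CD79A and CD79B proteins, whose tails recruit the kinase SYK, and the adaptor BLNK then joins SYK to downstream enzymes such as BTK. PAX5 is the transcription factor that sets and keeps B-cell identity and is switched off when a B cell becomes an antibody-secreting plasma cell. In the lung, B cells are found in the blood held in the vessels, scattered in the tissue and in lymphoid clusters along the airways, and plasma cells that make IgA supply the airway surface.

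Promoter windows are shown for 3 members that stand for different outcomes below: the receptor chain Cd79a, the co-receptor Cd22 and the adaptor Blnk. Each runs from 250 bases before to 50 bases after an annotated start, from RefSeq on GRCm38.p6. Windows were on hand for 5 of the 8 members, 7 windows in all, because Fcer2a has 3 starts. Capitals mark matches on either strand to the octamer ATGCAAAT, the EBF core CCCNNGGG, the Ets core GGAAGT or the E-box CAGGTG, letters known as binding motifs of factors active in B cells.

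Cd79a, chr7:24897247-24897546, plus strand: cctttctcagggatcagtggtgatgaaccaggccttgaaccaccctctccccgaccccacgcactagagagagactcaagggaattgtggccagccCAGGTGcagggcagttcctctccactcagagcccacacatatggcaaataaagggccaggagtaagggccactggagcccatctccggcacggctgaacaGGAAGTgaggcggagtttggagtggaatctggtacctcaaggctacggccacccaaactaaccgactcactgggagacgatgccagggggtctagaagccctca

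Cd22, chr7:30878979-30879278, minus strand: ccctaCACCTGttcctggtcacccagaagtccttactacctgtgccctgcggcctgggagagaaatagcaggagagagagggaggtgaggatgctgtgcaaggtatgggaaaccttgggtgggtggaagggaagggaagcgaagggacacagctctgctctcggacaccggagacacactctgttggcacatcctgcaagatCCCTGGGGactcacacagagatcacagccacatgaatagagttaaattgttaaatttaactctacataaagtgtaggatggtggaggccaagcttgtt

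Blnk, chr19:40994172-40994471, minus strand: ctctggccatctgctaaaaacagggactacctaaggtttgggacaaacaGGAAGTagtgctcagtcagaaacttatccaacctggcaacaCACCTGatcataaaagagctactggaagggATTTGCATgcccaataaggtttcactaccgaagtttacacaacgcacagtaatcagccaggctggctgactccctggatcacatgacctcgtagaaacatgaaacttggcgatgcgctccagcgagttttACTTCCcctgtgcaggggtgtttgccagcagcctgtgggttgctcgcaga

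The Cd79a window held an E-box 154 bases and an Ets core 54 bases before the start. The Cd22 window held an E-box on the opposite strand 245 bases and an EBF core 48 bases before the start. The Blnk window held an Ets core 201 bases before the start, an E-box on the opposite strand 160 bases before it, an octamer on the opposite strand 130 bases before it and a second Ets core on the opposite strand at the start itself. None of the motifs overlapped another. Of all 32851 windows, 1.74% held the octamer, 13.7% the EBF core, 23.8% the Ets core and 20.2% the E-box. Of the 3 Fcer2a windows, 1 held an Ets core, 1 held 2 E-boxes and 1 held none of these letters, and the Pax5 window held none. A match says only that the letters are there.

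Values are given as scaled signal, that is the authors' deposited intensity after each array was brought to a common median. The 24 medians before scaling lay between 298 and 341, and the dimmest 25% of all values, below 80.4, were raised to that floor before log2 values were taken. The arrays fell into 12 of wide and 12 of narrow signal range, with highest signals of 74441 to 99043 and of 31595 to 54315. The wide-range arrays were those of CR 2, 12, 24 and 48 h, fed 0 h number 1 and fed 12 h, and the narrow-range arrays those of CR 4, 72 and 96 h, fed 0 h number 2 and fed 2 and 4 h. The 3′ to 5′ signal ratio of Gapdh, a sign of RNA quality, was 1.95 and 2.15 at CR 48 h and 1.76 to 2.02 at fed 0 h, and 1.01 to 1.66 on the other 18 arrays. Fed 0 h numbers 1 and 2 differed widely from each other, so results against fed 0 h are set out by number further on. Levels of 1 probe set are not compared with those of another, because probe sets differ in how strongly they bind.

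Of the 13 probe sets, 10 passed the filter of a signal at or above the array's own median on 2 or more arrays. The 3 that did not were 1 of Pax5 (102578_at, at the floor on 22 of 24 arrays) and 2 of Igha (97009_f_at, at the floor on 23 arrays, and 161486_f_at, never at the median). Mean signal over the 24 arrays was 1126 for Cd79a, 1348 for Cd79b, 1604 and 955 for the 2 Ms4a1 probe sets, 876 for Igha (100583_at), 455 for Pax5 (96993_at), 386 and 286 for the 2 Blnk probe sets, 303 for Fcer2a and 261 for Cd22. By limma's F test over the 11 groups, 9 of the 10 probe sets differed between groups at an adjusted p under 0.05, against 9.26% of all 7440 probe sets tested. The other was Blnk 100772_g_at, with an adjusted p of 0.056.

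In the lungs of mice restricted for 1 day or more (24 to 96 h, called late CR below, 8 arrays), the signals of Cd79a, Cd79b, Ms4a1, Fcer2a and Blnk were lower than in fed lungs of 2, 4 and 12 h, and that of Igha was higher. Cd22 and Pax5 did not pass. Against the 6 fed arrays of 2, 4 and 12 h, 7 of the 10 member probe sets were lower and 1 was higher by limma with Benjamini-Hochberg adjustment over all probe sets, where 2.73% of all probe sets were called lower and 3.62% higher. The median log2 difference was -1.08 over the members and 0.02 over all probe sets. Against the 4 arrays of fed 0 h, 5 were lower and 1 higher, where 8.24% of all were called lower and 9.85% higher, with medians of -0.80 and -0.00. Both comparisons use the same late CR arrays. By the labelled hours, late CR shares its clock time with fed 0 h, and fed 2, 4 and 12 h fall at other times of day. Diet and time of day therefore cannot be told apart in the comparison with fed 2, 4 and 12 h. In whole lung, fewer B cells and less RNA per B cell cannot be told apart.

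Cd79a and Cd79b encode the signalling chains of the B-cell receptor. Cd79b had signals of 1085 and 770.4 at CR 24 h, 472 and 622 at CR 48 h, 424 and 369 at CR 72 h and 592 and 528 at CR 96 h. In fed lungs Cd79b had 2987, 2733, 513 and 1247 at 0 h (arrays 1a, 1b, 2a and 2b), 1847 and 1544 at 2 h, 2244 and 2371 at 4 h and 1106 and 1125 at 12 h. All 8 late CR arrays lay below all 6 fed arrays of 2, 4 and 12 h, at the closest with 1085 against 1106. For this and the other members, the share of all probe sets that separate this way was not counted. The 2 arrays of fed 0 h number 2 overlapped with late CR in 1 case and lay above it in the other. Cd79b averaged 608 ± 230.1 in late CR (SD, n = 8) and 1706 ± 543 at fed 2, 4 and 12 h (SD, n = 6), and was 2.84-fold lower (log2 difference -1.50, 95% confidence interval -2.09 to -0.92, limma adjusted p = 0.00214). Against fed 0 h, at 1870.1 ± 1186 (SD, n = 4), it was 2.63-fold lower (adjusted p = 0.00672).

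Cd79a had signals of 743 and 739 at CR 24 h, 350.5 and 625 at CR 48 h, 527 and 796 at CR 72 h and 601 and 579.7 at CR 96 h. In fed lungs Cd79a had 1768, 1423, 475 and 680.1 at 0 h, 1204 and 1544 at 2 h, 1530.3 and 1323 at 4 h and 1839.7 and 1318 at 12 h. Here too the 8 late CR arrays lay below the 6 fed arrays of 2, 4 and 12 h, while both arrays of fed 0 h number 2 fell within the late CR range. Cd79a was 2.4-fold lower in late CR than at fed 2, 4 and 12 h (log2 difference -1.26, interval -1.76 to -0.76, limma adjusted p = 0.00257). Against fed 0 h its log2 difference of -0.65 did not pass (adjusted p = 0.0952), though it did without array 2a (log2 difference -0.99, adjusted p = 0.00625) and without array 2b (-0.81, 0.0424). Without array 1a the log2 difference shrank to -0.36 (limma adjusted p = 0.414) and without array 1b to -0.46 (0.327).

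Ms4a1 encodes CD20, a membrane protein of mature B cells, and has 2 probe sets on the array. Its brighter probe set, 104173_at, had 1015 and 978 at CR 24 h, 772 and 701 at CR 48 h, 824 and 757 at CR 72 h and 883 and 599 at CR 96 h. In fed lungs it had 3031, 4602, 829 and 1408 at 0 h, 2075 and 1398 at 2 h, 2232 and 2684 at 4 h and 1255 and 1847 at 12 h. The late CR arrays again lay below every fed array of 2, 4 and 12 h, and the lowest fed 0 h array, 2a, fell among them. The probe set was 2.3-fold lower than at fed 2, 4 and 12 h (log2 difference -1.20, interval -1.76 to -0.64, limma adjusted p = 0.0095) and 2.49-fold lower than at fed 0 h (adjusted p = 0.00757). The other probe set, 99446_at, ranged over 242, 438 and 618 in late CR (lowest, median, highest) and over 1044, 1186 and 1704 at fed 2, 4 and 12 h, again with no overlap. It was 2.88-fold lower than at fed 2, 4 and 12 h (adjusted p = 0.000771) and 2.87-fold lower than at fed 0 h (adjusted p = 0.00185), so that the 2 probe sets of Ms4a1 moved the same way.

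**Figure D1:**
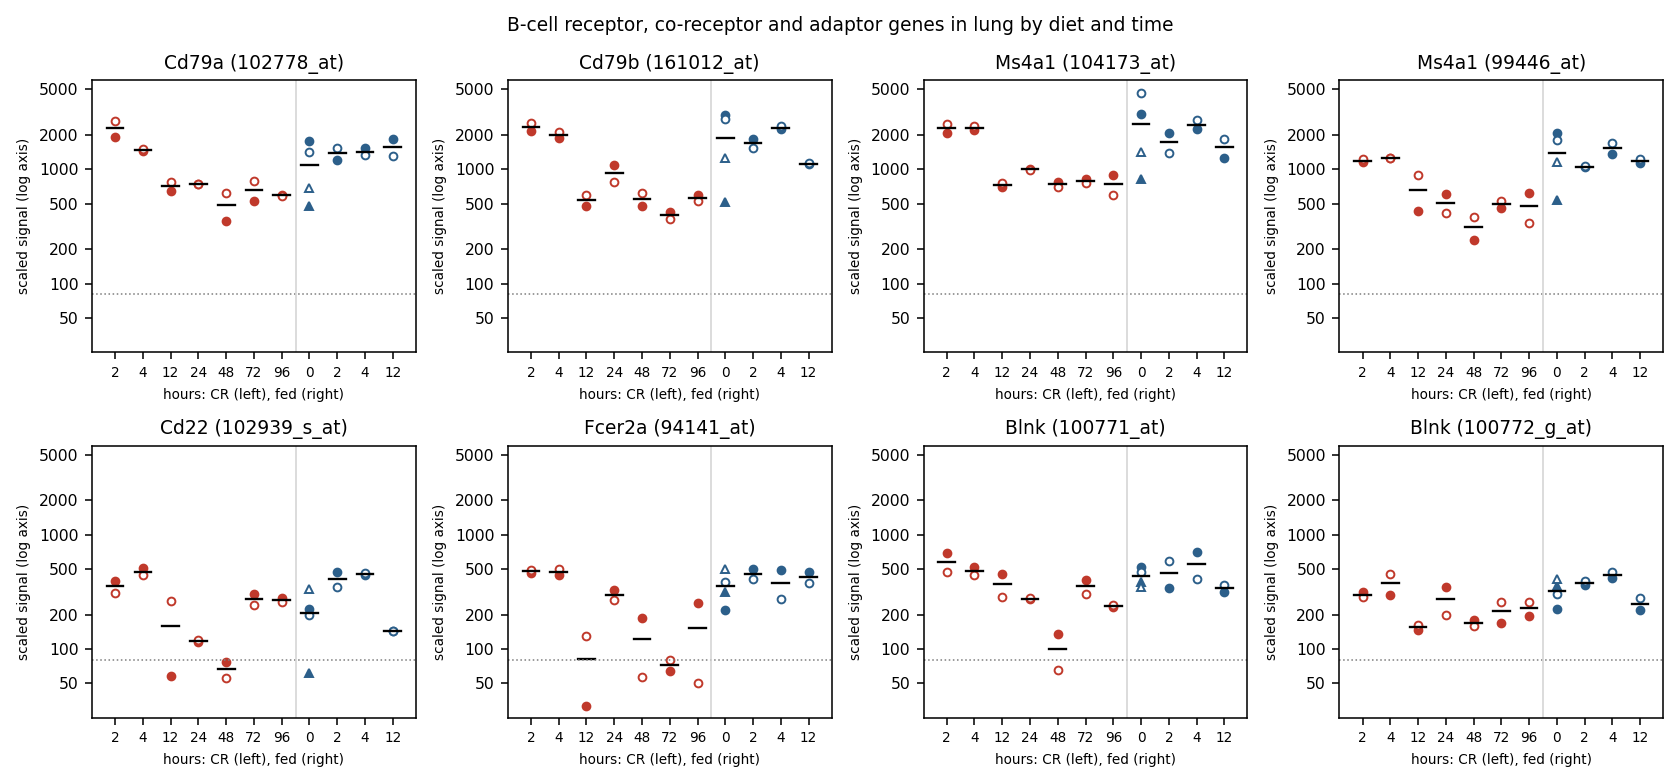
Scaled signal on a log axis of the 8 probe sets of Cd79a, Cd79b, Ms4a1, Cd22, Fcer2a and Blnk on each array, with CR times on the left and fed times on the right of each panel. Filled and open symbols are letters a and b, triangles are number 2 of fed 0 h, bars are group means and the dotted line is the floor of 80.4. For Cd79a, Cd79b and both Ms4a1 probe sets, all 8 arrays of CR 24 to 96 h lie below all 6 fed arrays of 2, 4 and 12 h. The share of all probe sets that separate this way was not counted.

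Fcer2a encodes CD23, the low-affinity receptor for IgE on mature B cells. It had 326 and 267 at CR 24 h, 187 and 56.9 at CR 48 h, 64 and 80.2 at CR 72 h and 254 and 50.1 at CR 96 h, and 4 of these 8 values were at the floor. In fed lungs Fcer2a had 219.6, 384, 316 and 497 at 0 h, 505 and 407 at 2 h, 487 and 273 at 4 h and 469 and 378 at 12 h, none of them at the floor. The CR 24 h arrays overlapped with the fed arrays and those of CR 72 h did not. Fcer2a averaged 161 ± 111 in late CR (SD, n = 8), 354 ± 117 at fed 0 h (SD, n = 4) and 419.6 ± 86.8 at fed 2, 4 and 12 h (SD, n = 6). Its log2 difference, computed with the 4 values raised to the floor, was -1.53 in late CR against fed 2, 4 and 12 h (limma adjusted p = 0.00144) and -1.25 against fed 0 h (adjusted p = 0.0104). Numbers 1 and 2 of fed 0 h overlapped for Fcer2a.

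Cd22 encodes a lectin that dampens receptor signalling. It ranged over 56.2, 181 and 305 in late CR (lowest, median, highest) and over 143, 396 and 472 at fed 2, 4 and 12 h. Its log2 difference was -0.88 (interval -1.48 to -0.28) against these fed arrays and -0.20 (interval -0.89 to 0.48) against fed 0 h, and neither passed (limma adjusted p = 0.078 and 0.677). In late CR and at fed 2, 4 and 12 h its signal went with the signal range of the arrays, whose part in the result was not tested. It was 56.2 to 119.6 on the wide-range late CR arrays (24 and 48 h) and 243 to 305 on the narrow-range ones (72 and 96 h), and 143 on both wide-range fed 12 h arrays and 350.5 to 472 on the narrow-range fed 2 and 4 h arrays. The same order held at CR 2, 4 and 12 h. There the signal was 506 and 442 on the narrow-range arrays of CR 4 h. On the wide-range arrays it was 397 and 309 at CR 2 h and 58.3 and 262 at CR 12 h. At fed 0 h the order did not hold, with 61.1 and 337 on the narrow-range arrays 2a and 2b and 224 and 198 on the wide-range arrays 1a and 1b. Its probe set name ends in _s_at, the array maker's mark for probes that can match more than 1 transcript.

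Blnk encodes the adaptor that passes the receptor signal on. Its probe set 100771_at had 276 and 277 at CR 24 h, 136 and 65.2 at CR 48 h, 401 and 302 at CR 72 h and 233 and 244 at CR 96 h. In fed lungs it had 524, 471, 383 and 349 at 0 h, 339 and 591 at 2 h, 710.3 and 407 at 4 h and 313 and 365 at 12 h. The 2 arrays of CR 48 h were the lowest of all, and 1 array of CR 72 h lay within the fed range and the other just below it. The probe set was 1.96-fold lower in late CR than at fed 2, 4 and 12 h (limma adjusted p = 0.00386) and 1.93-fold lower than at fed 0 h (adjusted p = 0.00748). The other Blnk probe set, 100772_g_at, was lower than at fed 2, 4 and 12 h (log2 difference -0.70, adjusted p = 0.0322), a call that did not hold in 9 of 24 fits with 1 array left out. Against fed 0 h it did not pass (-0.56, adjusted p = 0.0765).

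Igha encodes the constant part of the IgA heavy chain, the product of IgA plasma cells, and it was the only member whose signal was higher in late CR. Its probe set 100583_at had 1440.2 and 1346 at CR 24 h, 713 and 577 at CR 48 h, 2182 and 1779 at CR 72 h and 1875 and 1559 at CR 96 h. In fed lungs Igha had 606, 677, 539 and 741 at 0 h, 513 and 600.4 at 2 h, 556 and 512 at 4 h and 596 and 589 at 12 h. The 6 arrays of CR 24, 72 and 96 h lay above every fed array, and the 2 of CR 48 h lay within the fed range. Igha was 2.35-fold higher in late CR than at fed 2, 4 and 12 h (log2 difference 1.23, interval 1.01 to 1.46, limma adjusted p = 4.32e-07), with 1.05 against fed 0 h (interval 0.79 to 1.30, adjusted p = 1.47e-05). The difference between numbers 1 and 2 of fed 0 h did not pass for Igha (log2 difference 0.02, interval -0.38 to 0.42, adjusted p = 0.947).

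The other 2 Igha probe sets were too dim to be tested. The brighter of these, 161486_f_at, had 193 and 175 at CR 72 h and 118 and 139.8 at CR 96 h, against 252, 167, 125 and 109.9 at fed 0 h, with overlapping ranges. It had 148 and 80.9 at fed 2 h, 111 and 111 at fed 4 h and 161 and 35.4 at fed 12 h. These fed values lay below both CR 72 h arrays and overlapped with those of CR 96 h. The rise therefore rests on 1 probe set. The Pax5 probe set 96993_at ranged over 219, 413 and 598 in late CR and 387, 474 and 562 at fed 2, 4 and 12 h, ranges that overlap, and its log2 differences of -0.19 (interval -0.53 to 0.14) and, against fed 0 h, -0.39 (interval -0.77 to -0.01) did not pass (limma adjusted p = 0.527 and 0.132).

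**Figure D2:**
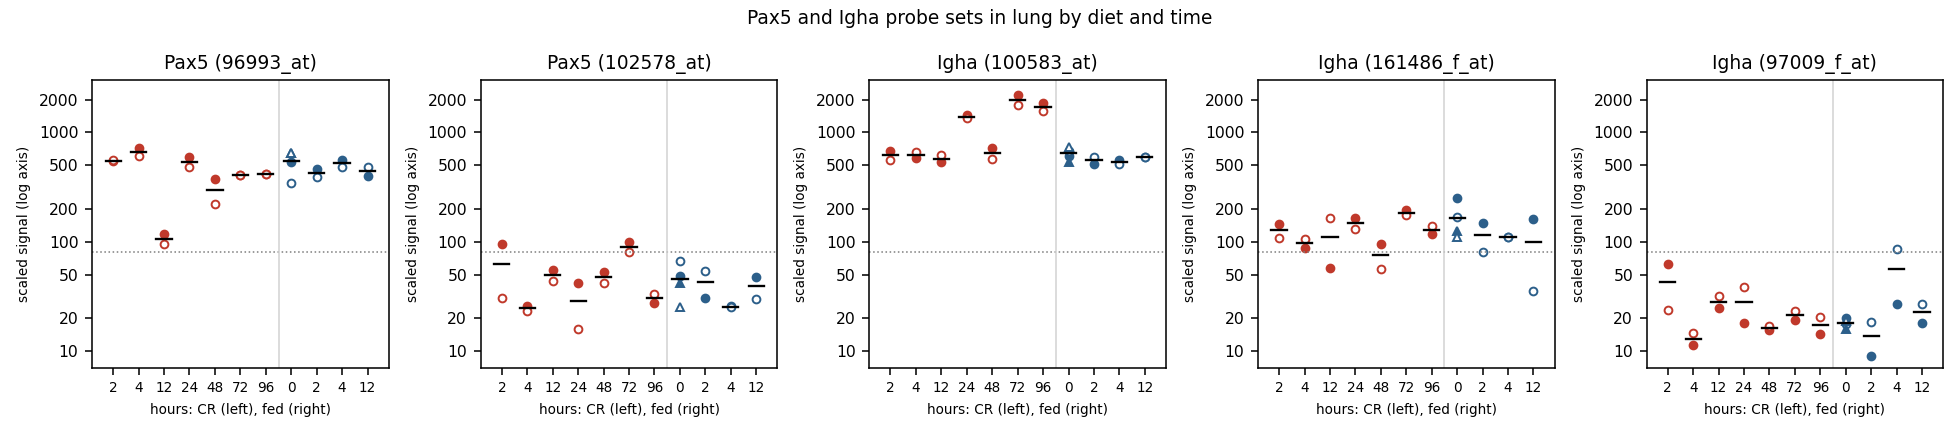
Scaled signal on a log axis of the 2 Pax5 and 3 Igha probe sets on each array, with symbols as in the plot of the surface receptor genes. Pax5 96993_at is lowest at CR 12 h, at 117 and 95.4, and Igha 100583_at is at 1346 or more at CR 24, 72 and 96 h and at 741 or less in every fed group.

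The comparison with fed 0 h differed between its numbers. Number 1 of fed 0 h had higher signals than number 2 for Cd79a (log2 difference 1.48, limma adjusted p = 0.000231), Cd79b (1.84, 4.72e-05) and both Ms4a1 probe sets (1.79, 3.41e-05, and 1.30, 0.00581), that is for 4 of 10 member probe sets, where 20% of all probe sets were called higher. No member was called lower, and the other 6 did not pass. Against number 1 alone, 7 member probe sets were called in late CR (49.4% of all probe sets), and against number 2 alone 3 were called (7.76% of all): Igha, Fcer2a and Pax5. With number 2 as the control, the log2 difference was 0.09 for Cd79a, -0.48 for Cd79b, and -0.42 and -0.87 for Ms4a1, and none of these 4 passed. Between fed 2, 4 and 12 h and fed 0 h no member passed by limma, where 1.85% of all probe sets were called. At an unadjusted p under 0.05 there was 1 of 10 members. When a and b were averaged to 1 sample, no member passed against fed 0 h by limma, with 5 of 10 at an unadjusted p under 0.05, and 4 passed against fed 2, 4 and 12 h: Cd79a, Cd79b and both Ms4a1 probe sets.

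Within the narrow-range arrays, CR 72 and 96 h against fed 2 and 4 h, 7 member probe sets were called (4.65% of all probe sets). These were Cd79a, Cd79b, both Ms4a1 probe sets, Fcer2a, Blnk 100772_g_at and Igha, with a log2 difference of -2.07 for Cd79b (adjusted p = 0.0015) and 1.75 for Igha (2.42e-07). Within the wide-range arrays, CR 24 and 48 h against fed 12 h, none passed by limma, where 1.01% of all probe sets were called. At an unadjusted p under 0.05 there were 5 of 10 members. The log2 differences within the wide-range arrays had the sign of the full comparison for all 10. The full comparison includes these same arrays, so a shared sign is no separate evidence. The log2 differences were -1.40 for Cd79a (limma adjusted p = 0.0997), -0.66 for Cd79b (0.619) and 0.67 for Igha (0.075).

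**Figure D3:**
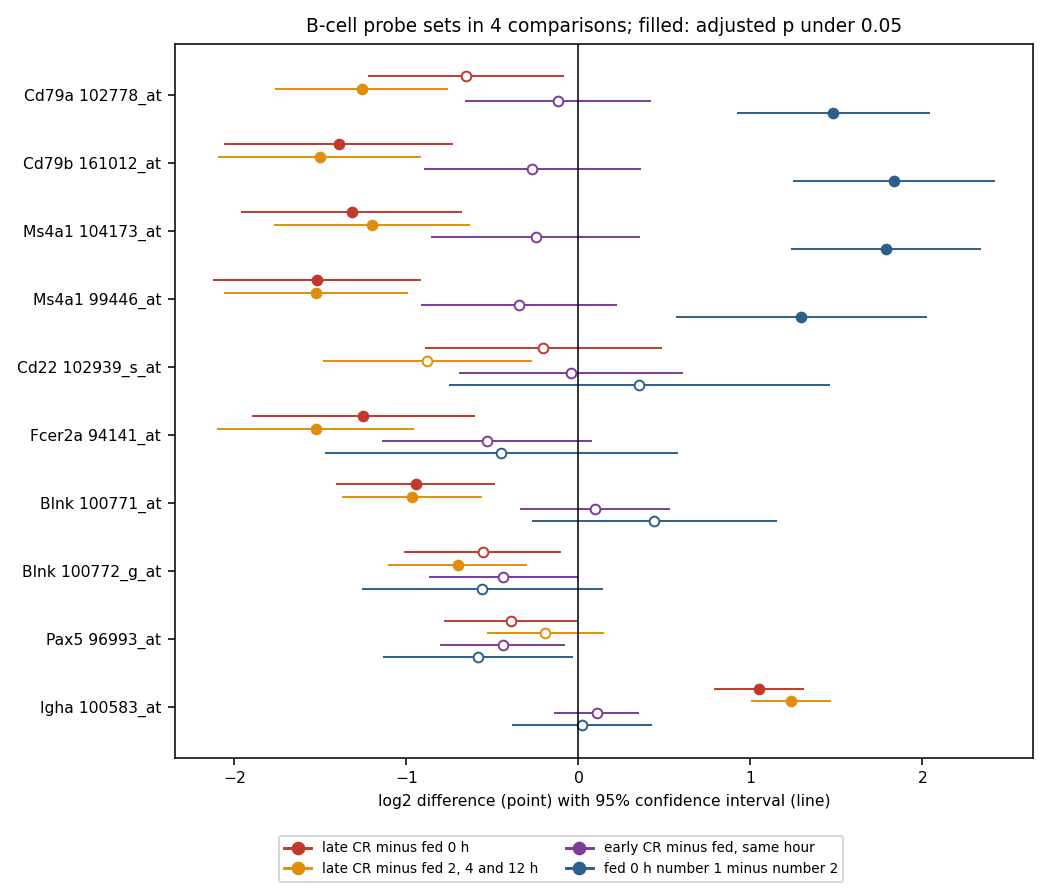
Log2 differences of the 10 tested probe sets with 95% confidence intervals for late CR minus fed 0 h, late CR minus fed 2, 4 and 12 h, early CR minus fed of the same hour, and fed 0 h number 1 minus number 2. Filled points passed an adjusted p of 0.05. Igha is the only member above 0 in both late comparisons, and Cd79a, Cd79b and Ms4a1 are the members with a filled point above 0 for number 1 minus number 2.

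The first hours of restriction were set against fed lungs of the same hour. At 4 h both sides were narrow-range arrays, and at 12 h both were wide-range ones. At 2 h the CR arrays were wide-range and the fed arrays narrow-range, so diet and signal range cannot be told apart there. Over CR 2, 4 and 12 h against fed of the same hour, no member passed by limma, where 0.0269% of all probe sets were called. At an unadjusted p under 0.05 there were 2 of 10 members, and the share of all probe sets was not counted at that threshold. Cd79b, for example, had 2167 and 2556 at CR 2 h, against 1847 and 1544 at fed 2 h, and 1859.7 and 2132 at CR 4 h, against 2244 and 2371 at fed 4 h. At 2 h and at 4 h, 0 members were called and 0 had an unadjusted p under 0.05, and 0% of all probe sets were called. The 95% intervals of these single times are wide: for Cd79b they were -0.60 to 1.56 at 2 h and -1.29 to 0.87 at 4 h on the log2 scale.

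At 12 h of restriction Pax5 was lower. Its probe set 96993_at had 117 and 95.4 at CR 12 h, against 395 and 487 at fed 12 h, and no other array of the study was below 219. Pax5 was 4.15-fold lower (log2 difference -2.05, interval -2.67 to -1.43, limma adjusted p = 0.00561), 1 of 3 probe sets called lower at this time (0.0403% of all). The call was lost when CR 12 h array 1b or fed 12 h array 1b was left out (log2 differences between -2.20 and -1.90, highest adjusted p 0.086). The difference at 12 h was itself lower than the mean difference at 2 and 4 h (log2 -2.42, adjusted p = 0.0189; 0.0134% of all called), in a contrast added after the values were seen. At CR 2 h Pax5 had 548 and 557, against 461 and 387 at fed 2 h, and at CR 4 h it had 722 and 612, against 562 and 487 at fed 4 h, and at both times both CR arrays were above both fed arrays. The 2 h arrays differed in signal range, wide for CR and narrow for fed, and this enters the contrast of 12 h with 2 and 4 h.

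Several receptor genes were also low at CR 12 h without passing the test. Fcer2a had 31.7 and 131 at CR 12 h, against 469 and 378 at fed 12 h (log2 difference -2.04, limma adjusted p = 0.175). Cd79a had 644 and 777, against 1839.7 and 1318 at fed 12 h, and Cd79b had 475 and 593, against 1106 and 1125. Both CR arrays were below both fed arrays for these genes, for Ms4a1 and for Blnk 100772_g_at. The share of all probe sets ordered this way was not counted, and 2 arrays a side can be so ordered without a difference. By limma 4 of the 10 members were at an unadjusted p under 0.05, a threshold at which all probe sets were not counted. Only Pax5 passed after adjustment, where 0.148% of all probe sets were called in either direction. Pax5 was back in the fed range at CR 24 h, with 598 and 479.8, and Cd79a at CR 24 h lay within its range of CR 12 h.

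The day-by-day differences were taken against the same 4 arrays of fed 0 h, so the 4 comparisons share their control. At CR 24 h Igha was higher (log2 difference 1.13, limma adjusted p = 0.00121), where 2% of all probe sets were called higher. No member was called lower, where 0.82% of all were. At an unadjusted p under 0.05 there were 3 members in either direction. At CR 48 h Blnk 100771_at was lower, with a log2 difference of -2.03 in which 1 of its 2 arrays was raised to the floor (adjusted p = 0.000759), and Ms4a1 99446_at was 4.07-fold lower (adjusted p = 0.00694), where 2.92% of all probe sets were called lower. The Ms4a1 call was lost without array 1a of CR 48 h. The Gapdh 3′ to 5′ ratios of these arrays were among the 3 highest of the study, and its part in their low values was not tested. Igha did not pass at CR 48 h, with a log2 difference of 0.01 (interval -0.35 to 0.37).

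At CR 72 h Cd79b was 3.82-fold lower (limma adjusted p = 0.016) and Fcer2a, with both arrays raised to the floor, was lower, with a log2 difference of -2.08 (adjusted p = 0.00844), where 2.14% of all were called lower. Both calls were lost when either CR 72 h array was left out. Igha was at its highest then (log2 difference 1.63, adjusted p = 1.11e-05; 3.68% of all called higher). At CR 96 h both Ms4a1 probe sets were lower (log2 differences -1.47 and -1.43, adjusted p = 0.0483 and 0.0417; 2.57% of all), calls that held in 2 and 9 of 24 fits with 1 array left out, and Igha was higher (1.43, 3.1e-05; 3.92% of all). The Igha calls at 24, 72 and 96 h held in all 24 such fits. Over the 7 single times 10 member calls were made, and without fed 0 h array 2a there were 22.

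By group means, Cd79b was ordered CR 2 h, fed 4 h, CR 4 h, fed 0 h, fed 2 h, fed 12 h, CR 24 h, CR 96 h, CR 48 h, CR 12 h and CR 72 h. The ranges of neighbours overlapped in this order except between fed 4 h and CR 4 h, fed 2 h and fed 12 h, fed 12 h and CR 24 h, CR 24 h and CR 96 h, and CR 12 h and CR 72 h. Cd79a also had CR 2 h at the top, clear of all other groups, and had CR 48 h at the bottom. Igha had CR 72 h, CR 96 h and CR 24 h at the top, with the ranges of CR 72 h and CR 96 h overlapping and those of CR 96 h, CR 24 h and the next group, CR 48 h, apart.

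Over the 24 arrays the members other than Igha had positive correlations with their common profile, given as a description with no test, since arrays of a group share their condition. Pearson's r with the mean profile of the members, to which each of the 8 genes itself contributes, was 0.90 for Cd79b, 0.88 for Ms4a1, 0.83 for Cd79a, 0.80 for Fcer2a, 0.75 for Blnk, 0.74 for Cd22 and 0.66 for Pax5, and was -0.27 for Igha. Among 5698 other genes, those most like the profile were Coro1a (r = 0.95), an actin-binding protein of leukocytes, Cd52 (0.92), a surface glycopeptide of lymphocytes, Arhgdib (0.92), Id2 (0.91), Ighv14-2 (0.89), an immunoglobulin heavy chain variable segment, and Evi2a (0.88). Coro1a averaged 769 ± 206 in late CR (SD, n = 8) and 1652 ± 452 at fed 2, 4 and 12 h (SD, n = 6), and Cd52 averaged 1439 ± 409.8 and 3370.2 ± 995 in the same groups. Ighv14-2 averaged 120.2 ± 48.2 in late CR and 441 ± 127 at fed 2, 4 and 12 h, and 206 ± 156 at fed 0 h.

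**Figure D4:**
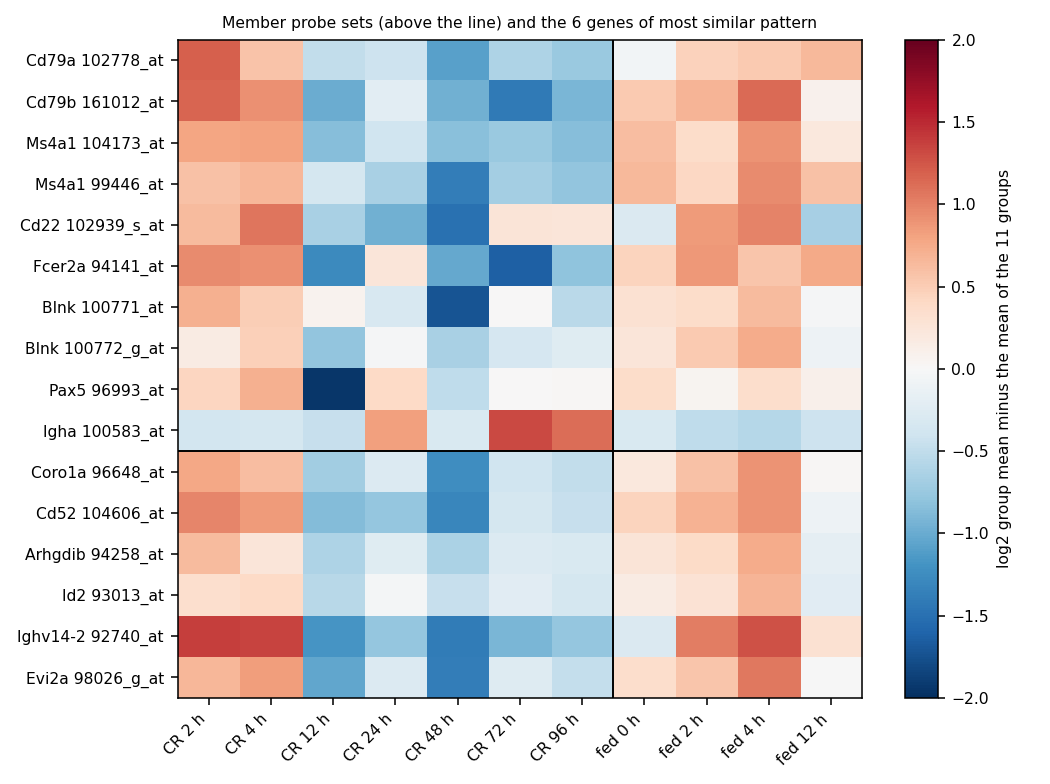
Log2 group means minus the mean of the 11 groups for the 10 tested member probe sets (above the line) and the 6 genes of most similar pattern (below it), with CR groups on the left and fed groups on the right. All 10 member probe sets are below 0 at CR 48 h, and the share of all probe sets below 0 there was not counted. The 6 similar genes are below 0 there too, but they were picked for their likeness to the members. Igha stands at 0.82, 1.32 and 1.12 at CR 24, 72 and 96 h.

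Other genes of the pathway and of other cells were read from lists. Of all probe sets, 2.73% were called lower and 3.62% higher in late CR against fed 2, 4 and 12 h, and 8.24% and 9.85% against fed 0 h. Of 13 tested genes of B-cell receptor signalling and surface, 6 were lower in late CR than at fed 2, 4 and 12 h and none was higher, with a median log2 difference of -0.60: Cd37 (-0.82), a tetraspanin, Ptprc (-0.90), the CD45 phosphatase, Blk (-0.74) and Btk (-0.60), kinases of the pathway, Prkcb (-0.71) and Syk (-0.38). Against fed 0 h, Cd37 (-0.58, limma adjusted p = 0.0176) and Blk (-0.77, 0.00718) were lower and the list's median was -0.21. The 2 brightest genes of this list, Cd24a (0.36, adjusted p = 0.0954) and Cd81 (-0.19, 0.285), which other lung cells express too, did not pass against fed 2, 4 and 12 h. Blk, a kinase largely of B cells, averaged 315 ± 108 in late CR (SD, n = 8), 519.99 ± 99 at fed 0 h (SD, n = 4) and 507 ± 79.3 at fed 2, 4 and 12 h (SD, n = 6).

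Of 8 tested B-cell transcription factors, Irf8 was lower in late CR against both control sets (log2 difference -0.59 against fed 2, 4 and 12 h, limma adjusted p = 0.00735) and Bcl6 was higher against fed 0 h (0.66, 0.0161), while Id3 did not pass in either (0.12 and -0.15). Of 7 tested immunoglobulin and plasma cell genes, Ighm, the constant part of the IgM heavy chain carried by most circulating B cells, was lower than at fed 2, 4 and 12 h. It averaged 2239.98 ± 752 in late CR (SD, n = 8) and 4454 ± 414 at fed 2, 4 and 12 h (SD, n = 6), with a log2 difference of -1.06 (adjusted p = 0.00143). Against fed 0 h its -0.47 did not pass (0.128). The plasma cell genes Jchain (0.19, adjusted p = 0.681, and -0.29, 0.441, against fed 0 h), Sdc1 (-0.06, 0.852, and -0.13, 0.593) and Xbp1 (0.02, 0.952, and 0.18, 0.352) passed in neither comparison, beside the rise of Igha. Pigr, another bright gene of this list, passed in neither. It averaged 3596 ± 576 in late CR (SD, n = 8), 3163 ± 1877 at fed 0 h (SD, n = 4) and 2702 ± 384 at fed 2, 4 and 12 h (SD, n = 6).

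Of 9 tested homing and survival genes, Ltb, a cytokine of lymphocytes, was lower against fed 0 h (-1.04, limma adjusted p = 0.0176) and Mcl1, a survival factor of the Bcl2 family, was higher (0.36, 0.0223). S1pr1, the receptor by which lymphocytes leave tissues and which endothelium also carries, was higher against fed 2, 4 and 12 h (0.79, 0.037). Bcl2 passed in neither (-0.04 and 0.08). None of 4 tested genes of early B cells passed in either late comparison, Rag1, Dntt and Igll1 among them.

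Markers of other cells were read beside these genes. The shares of all probe sets called in late CR were 8.24% lower and 9.85% higher against fed 0 h, and 2.73% and 3.62% against fed 2, 4 and 12 h. Of 3 tested NK and cytotoxic genes, all 3 were lower against fed 0 h and 2 against fed 2, 4 and 12 h, and the summed level of the 7 markers on the array was 509 to 998 in late CR, against 881 to 2145 at fed 0 h and 1162 to 1650.4 at fed 2, 4 and 12 h. The fed 0 h sums were 2092 to 2145 on number 1, and 881 to 911, within the late CR range, on number 2. Of 5 tested T-cell genes none passed against fed 0 h and 2 were lower against fed 2, 4 and 12 h (Thy1 and Cd8b1), with a summed level over 13 markers of 2391 to 4310.1 in late CR, 2974 to 3492 at fed 0 h and 3467 to 4171 at fed 2, 4 and 12 h. Cd3g and Cd8a, defining T-cell genes, were at the floor on 17 and 15 of 24 arrays. Of 7 tested macrophage genes 1 (Cd68) was lower in 1 comparison. The summed level of 11 markers, Siglec1 at the floor on 22 arrays among them, was 25532 to 50345 in late CR. It overlapped with 22328 to 50926 at fed 0 h and with 32765 to 48485 at fed 2, 4 and 12 h. The fed 0 h sums were 47288.5 to 50926 on number 1 and 22328 to 30464 on number 2.

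Of 6 tested neutrophil genes 1 (Camp) was lower in both late comparisons. The list's summed level was 3480.4 to 5267 in late CR, 3915 to 7142 at fed 0 h and 3645 to 6069 at fed 2, 4 and 12 h. The fed 0 h sums were 5694 to 7142 on number 1 and 3915 to 3998 on number 2. Of 8 tested endothelial genes 3 were higher against fed 0 h and 1 against fed 2, 4 and 12 h. Their summed level was 38349 to 65140 in late CR, 24442 to 57428 at fed 0 h and 40559.5 to 60903 at fed 2, 4 and 12 h. The fed 0 h sums were 24442 to 25143 on number 1, and 50550 to 57428, within the late CR range, on number 2. Of the 8 endothelial genes, 7 were called lower in number 1 than in number 2, where 19.9% of all probe sets were. Of 5 tested epithelial genes 1 was higher against fed 0 h. The list's summed level was 80663 to 190370.0 in late CR, 111344 to 188523 at fed 0 h and 91451.5 to 189155 at fed 2, 4 and 12 h. It was 163534 or more on every wide-range array and 129058 or less on every narrow-range array. Each of these groups held both kinds of array, so its range spans both. Of 3 tested erythroid genes none passed. The list's summed level was 35775 to 61898 in late CR, 37364 to 81138 at fed 0 h and 37501 to 78881 at fed 2, 4 and 12 h. This sum too split by signal range, at 50964 or more on wide-range and 46886 or less on narrow-range arrays. Of 7 tested heart muscle genes 4 were lower against fed 0 h and 1 against fed 2, 4 and 12 h. Their summed level was 11626 to 23999 in late CR and 24433 to 31186 at fed 0 h. At fed 2, 4 and 12 h it was 14748 to 20040, within the late CR range. The part of these other cells in the differences of the members was not tested.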

How the data were processed

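The values are the authors' deposited signal intensities of 24 Affymetrix MG-U74Av2 arrays of mouse lung. No label or file header used here names the program that computed them. The number of arrays limits the precision. After 66 control probe sets were left out, 12422 probe sets were scaled to a common array median (factors 0.920 to 1.05), raised to a floor at the 25th percentile and log2-transformed. The 7440 probe sets at or above their array's median on 2 or more arrays were tested with limma 3.58.1 (R 4.3.3, lmFit and eBayes with an intensity trend, 11 group means, 13 residual degrees of freedom), two-sided, with Benjamini-Hochberg adjustment over all of them and a threshold of 0.05. Fed 0 h numbers were compared in a fit with fed 0 h as separate numbers. Shares of all probe sets are of those called after adjustment, and none was counted at an unadjusted p. The test was checked on simulated data.

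Gene names came from the platform annotation: 10833 probe sets had 1 symbol, 396 several and 1193 none. The text names every member probe set, the brightest 3 genes and the called genes of each B-cell list, and the 6 genes of highest correlation with the members. Lists of other cell types are given by counts and summed levels, with only some of their genes named. The members and lists were chosen with earlier results of these data known. The contrast of the effect at 12 h against those at 2 and 4 h, and arrays left out of the comparison of fed 0 h numbers, were added after the values were seen. Alternatives changed the normalization, floor, filter, trend, control arrays and replicates. An array of another platform, which the labels put in no group, was not used.

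Letters a and b did not pair arrays across groups: of the 66 correlations between groups of their a minus b differences, with a lowest of -0.19 and a highest of 0.12, 2 were over 0.1.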

Additional observations from a re-analysis of the deposited data

Results flagged for a closer look

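The difference of Pax5 (96993_at) between CR and fed lungs was not the same at 12 h as in the first hours. The log2 difference at 12 h minus the mean difference at 2 and 4 h was -2.42 (95% confidence interval -3.18 to -1.66, limma adjusted p = 0.0189). Pax5 was the only probe set of 7440 called in this contrast (0.0134%), which was chosen after its values were seen. At 2 h the CR arrays were wide-range and the fed arrays narrow-range, so a difference in signal range enters the contrast. The call held in 17 of 24 fits with 1 array left out (adjusted p 0.00238 to 0.181) and was lost without array 1a or 1b of CR 2 h, 1a of CR 4 h, 1b of CR 12 h, or 1b of fed 2, 4 or 12 h. The other Pax5 probe set was at the floor on 22 of 24 arrays and gives no value for it. The cause was not tested. For the 13 member probe sets, no array of fed 0 h stood apart from the other 3 by Dixon's test.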

How the results depend on the processing

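Apart from fits with 1 array left out, 58 alternatives to the counts of called members were run, and 48 gave a count within 1.5 times the first one; of 168 counts with 1 array left out, 165 did. For late CR against fed 0 h, where 6 members were called, 3 were called with only the compared arrays in the fit, 3 with fed 0 h number 2 alone, 3 within the narrow-range arrays (CR 72 and 96 h against number 2) and 0 with a and b averaged (5 of 10 at an unadjusted p under 0.05). For late CR against fed 2, 4 and 12 h, with 8 called, 4 were called with a and b averaged, which leaves fewer samples, and 0 within the wide-range arrays (CR 24 and 48 h against fed 12 h). With 12 h alone, 1 early member was called. For fed 2, 4 and 12 h against fed 0 h, limma called 0 members and 1.85% of all probe sets, and 1 member was at an unadjusted p under 0.05. In this comparison 2 members were called against number 1 alone and 3 against number 2 alone. The sign then turned for Cd79b against number 1 (log2 difference -0.81) and for Ms4a1 104173_at against number 2 (0.78). Without the filter the F test called 5 of 13 members. With 1 array left out, the counts ran between 6 and 7 for late CR against fed 0 h, 7 and 9 against fed 2, 4 and 12 h, 3 and 5 for the numbers of fed 0 h, 7 and 10 for the F test, and 6 (without either CR 72 h array) and 22 (without fed 0 h array 2a) for single times. With the letter as a replicate block the counts of called members were 6, 8, 0, 0, 10 and 9 for late CR against fed 0 h, late CR against fed 2, 4 and 12 h, early CR, later fed times, single times and the F test, the same as without the block, and among single times the call of Ms4a1 104173_at at CR 96 h was lost with it (adjusted p = 0.059) and that of Pax5 96993_at at CR 48 h was gained (log2 difference -0.88, adjusted p = 0.0473, and 0.0504 without the block). Over all probe sets, the count for late CR against fed 0 h was 1346, and 347 with only the compared arrays, 27 with a and b averaged, 3679 and 577 against numbers 1 and 2, and 3423 and 793 within the wide-range and narrow-range arrays. For late CR against fed 2, 4 and 12 h it was 472, and 1131 with only the compared arrays, 233 with a and b averaged and 75 within the wide-range arrays. For the later fed times against fed 0 h it was 138, and 2, 0, 2662 and 820 with only the compared arrays, averaged arrays, number 1 and number 2. For early CR it was 2, and between 0 and 11 over the alternatives. With 1 array left out these counts ran between 541 and 2255, 283 and 631, 45 and 421, and 0 and 3, and for single times between 933 and 4013. In none of these alternatives was the cause of a change tested. The floor sets part of the values of Fcer2a and Cd22.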
